A study of Mus musculus with 6 samples.

Results

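The genes described are 9 members of the epidermal growth factor (EGF) family: the ligand genes Areg, Ereg, Hbegf, Btc, Tgfa and Nrg1 and the receptor genes Egfr, Erbb2 and Erbb3. They were taken by symbol from a table of 41388 genes, and all 9 were found once and passed the filter on low counts, as did 15186 genes in all. The cells were primary fibro-adipogenic progenitors (mesenchymal cells resident in muscle, with both a fibrous and a fat-forming fate) from male wild-type mice. They were grown in 10% fetal bovine serum with human FGF. One group of 3 libraries came from cells given vehicle and the other group of 3 from cells given 500 nM prostaglandin E2 (PGE2), each on 2 consecutive days. Whether libraries of one group came from separate mice or cultures is not stated, so the spread behind every p-value may be technical.

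EGF family ligands are made as membrane-anchored precursors. Metalloproteases of the ADAM family release them, and the freed domain binds receptor tyrosine kinases that then pair up and activate the RAS-ERK cascade. ERBB2 has no known ligand of its own and ERBB3 has little kinase activity, so both work mainly as partners of another receptor. Amphiregulin, epiregulin and heparin-binding EGF are known early products of cells stimulated through cyclic AMP or growth factors, and PGE2 acts in part through receptors that raise cyclic AMP.

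Library totals ranged from 21006044 to 52730962 counts. Levels are given in CPM, counts per 1000000 counts of the scaled library. Relative to the unscaled totals, 3 counts were worth 0.0569 CPM in the deepest library and 0.143 CPM in the shallowest. The progenitor marker Pdgfra was at 1282 ± 167 CPM in vehicle and 1288 ± 145 CPM under PGE2 (SD, n = 3 each). The paired fit described below called 6.91% of all tested genes higher and 7.51% lower. Of 8 progenitor markers, 3 rose in the paired fit (Ly6a, Thy1 and Pi16) and 2 fell (Cd34 and Lum). The sum of the 8 was 4504, 5898 and 6955 CPM in vehicle and 4658, 6425 and 8973 CPM under PGE2. Macrophage and leukocyte markers summed to 9.12, 8.57 and 9.22 CPM in vehicle and 12.1, 12.3 and 11.5 CPM under PGE2, without overlap. The ranges of 25.9% of all tested genes did not overlap either. The paired fit called 2 of the 3 that were tested higher, Cd14 and Csf1r, while Ptprc was at 0 counts in every library. Pericyte and smooth muscle markers summed to 106, 103 and 68.6 CPM in vehicle and 73.0, 58.5 and 51.8 CPM under PGE2, and 3 of 6 fell in the paired fit. Endothelial markers summed to 21.2, 36.9 and 46.9 CPM in vehicle and 19.0, 25.2 and 33.2 CPM under PGE2, and 1 of 4 fell. Epithelial cells are a well known source of EGF ligands, and 6 epithelial markers summed to at most 0.372 CPM in any library. Same-numbered libraries of the 2 groups correlated in their deviations from group means, most clearly for number 1 and least for number 2. Pairs 2 and 3 are uncertain, since PGE2 library 2 correlated more with vehicle library 3 (0.252) than with vehicle library 2 (0.169). Results are given from an unpaired fit and, where the call differs, from a paired fit that has the library number as a block.

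No ligand gene passed the test for a PGE2 effect in either fit, and 1 receptor gene did in the paired fit. In the unpaired fit 0 of 9 had an adjusted p under 0.05 (edgeR, Benjamini-Hochberg over all tested genes), against 0.342% of all tested genes. The lowest adjusted p among the members was 0.294, and 0 had an unadjusted p under 0.05, as 20.1% of all tested genes did. DESeq2 also called 0 of the 9, but it gave Areg no adjusted p and so could not call it. Of the genes it gave an adjusted p, DESeq2 called 7.27%. With limma-voom 0 of the 9 passed. The vehicle and PGE2 ranges overlapped for all 9, whereas 25.9% of all tested genes had ranges that did not overlap. In the paired fit 1 of 9 passed, Erbb3, which was lower. That is 11.1% of the members, against 14.4% of all tested genes. In these bulk samples, fewer cells of a type and less RNA per cell cannot be told apart.

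Areg is a known target of cyclic AMP signalling, and its upstream sequence holds the element through which that signal commonly acts. RefSeq promoter windows of build GRCm38.p6 were matched for 5 of the 9 genes: Areg, Btc, Tgfa, Egfr and Erbb2. The cyclic AMP response element TGACGTCA, searched on both strands in the 250 bases before each start site, occurred in 1.55% of 32851 windows. Of the 5 members with a window, Areg held it. Among 39 genes of the pathway lists below that had a window it was also found in Braf, Epha2, Ptpn11 and Errfi1, the last a feedback inhibitor of EGF receptors. This search was chosen after the counts had been seen, and it describes letters, not binding. The element reads the same on both strands. The upstream sequences of Areg and Errfi1 are shown because Areg did not pass the test and Errfi1 rose in the paired fit. Errfi1 has another window in the table, without the element. Capitals mark the element, which begins 61 bases before the start site in Areg (chr5:91139349-91139598, plus strand) and 51 bases before it in Errfi1 (chr4:150854820-150855069, plus strand).
Areg: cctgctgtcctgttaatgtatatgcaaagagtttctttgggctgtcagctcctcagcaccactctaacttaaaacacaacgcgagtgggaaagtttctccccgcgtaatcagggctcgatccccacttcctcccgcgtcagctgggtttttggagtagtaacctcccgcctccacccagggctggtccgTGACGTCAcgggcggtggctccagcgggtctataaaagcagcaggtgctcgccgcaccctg
Errfi1: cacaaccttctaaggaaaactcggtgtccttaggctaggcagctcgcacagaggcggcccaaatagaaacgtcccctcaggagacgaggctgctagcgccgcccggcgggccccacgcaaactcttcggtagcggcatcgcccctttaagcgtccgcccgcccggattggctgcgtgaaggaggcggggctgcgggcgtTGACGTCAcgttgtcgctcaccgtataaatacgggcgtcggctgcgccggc
Both also hold TATAAA closer to the start site, beginning 31 bases before it in Areg and 28 bases before it in Errfi1, a motif found on either strand in 12.4% of windows. The shorter motif TGACG, which is part of the full element, lay in 17.8% of windows and, among the members, also in those of Btc and Erbb2.

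Areg was barely detected. Its counts were 13, 7 and 13 in vehicle libraries 1 to 3 and 31, 15 and 14 in PGE2 libraries 1 to 3, or 0.302, 0.331 and 0.300 CPM for vehicle and 0.668, 0.291 and 0.381 CPM for PGE2. PGE2 library 1 was the highest, and PGE2 library 3 was also above each vehicle library. The exact Poisson 95% interval of PGE2 library 1 was 0.454 to 0.948 CPM. It covers counting error only and overlaps the interval of vehicle library 1, 0.161 to 0.517 CPM. The interval of PGE2 library 3, 0.208 to 0.639 CPM, includes each vehicle value. The log2 fold change of PGE2 over vehicle was 0.53 ± 0.398 (SE; edgeR adjusted p = 0.493), and its 95% interval ran from 0.759-fold to 2.75-fold. Without PGE2 library 1 it was at 0.10, so its size rested on that library. Areg (ENSMUSG00000029378) lies on chromosome 5 at 91139599 to 91148432 of mm10.

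Ereg, the epiregulin gene, is the next gene of the family on that chromosome, at 91074622 to 91093646. With vehicle its level was 5.35, 5.30 and 4.09 CPM, and with PGE2 it was 5.34, 5.72 and 6.53 CPM. Thus the ranges met almost edge to edge, since the lowest PGE2 library was just below the highest vehicle library. The log2 fold change was 0.26 ± 0.161 (edgeR adjusted p = 0.409). The within-pair differences in log2 CPM were 0.00, 0.11 and 0.67, so pair 3 carried most of it. Of the 9 genes, Ereg and Areg had a positive fold change in both the unpaired and paired fits.

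Hbegf encodes heparin-binding EGF (chromosome 18, 36504927 to 36515805). With vehicle its level was 6.70, 4.07 and 4.25 CPM, and with PGE2 it was 6.40, 3.64 and 3.81 CPM. Library 1 was high in both groups, and each PGE2 library lay slightly below its vehicle partner. Differences within pairs were -0.07, -0.16 and -0.16. The log2 fold change was -0.12 ± 0.288 unpaired and -0.12 ± 0.130 in the paired fit (edgeR adjusted p = 0.553). Pairing narrowed the 95% interval from between 0.575-fold and 1.46-fold to between 0.752-fold and 1.12-fold. Only Hbegf and Erbb3 were lower in all 3 pairs, and none of the 9 was higher in all 3, while 25.5% of all tested genes were lower and 26.6% higher in all 3.

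**Figure D1:**
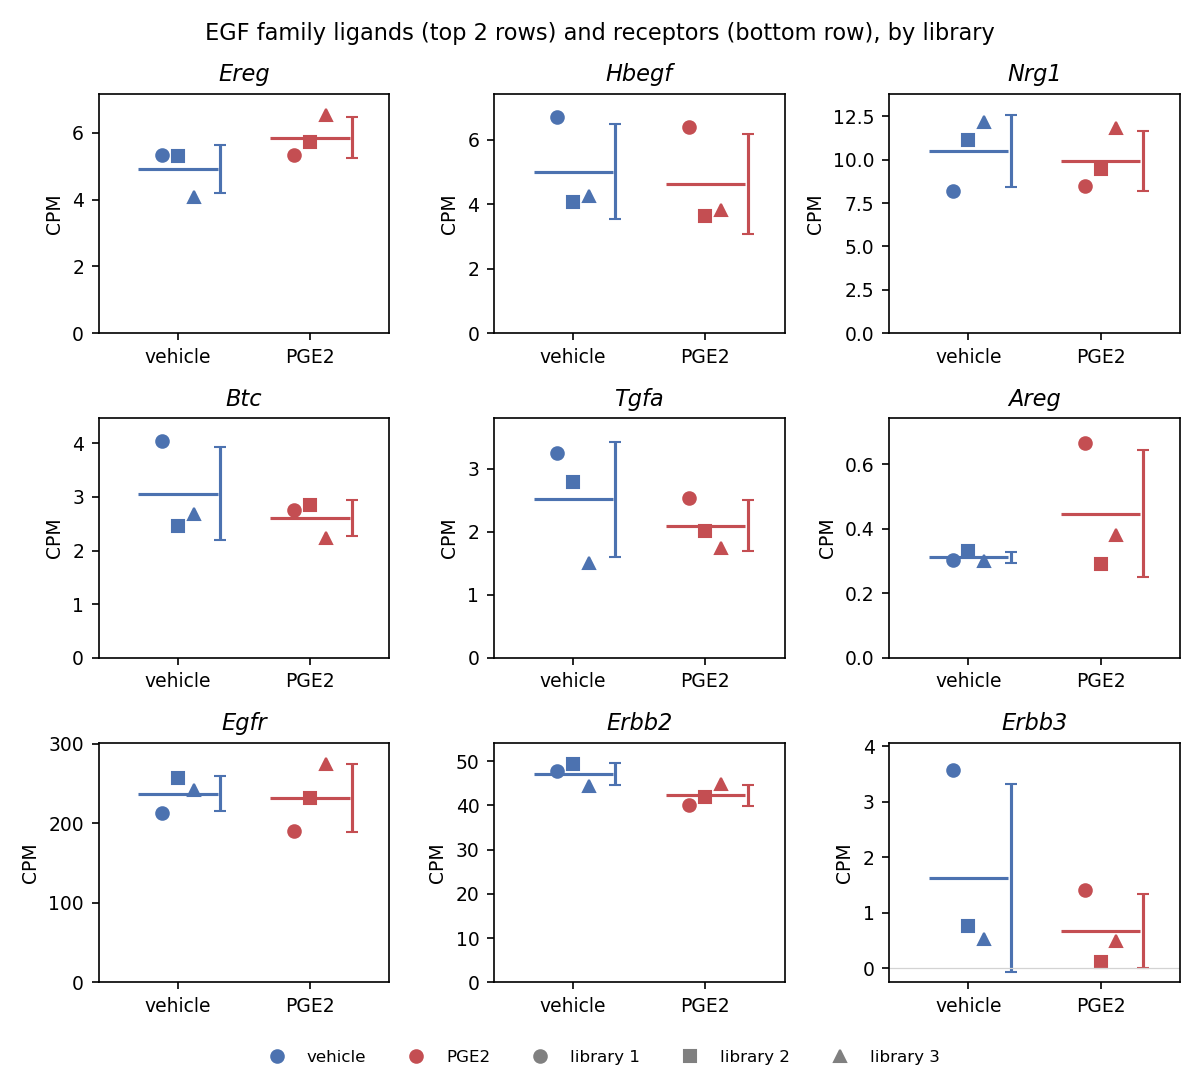
Level of each of the 9 genes in CPM (linear axis from 0 or just below) in vehicle and PGE2 libraries; points are libraries, horizontal lines are means and bars are SD, n = 3 per group. The 2 groups overlap in every panel. In both groups library 1 is the highest for Hbegf, Tgfa and Erbb3 and the lowest for Nrg1 and Egfr.

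Btc, Tgfa and Nrg1 complete the ligands. Betacellulin, the product of Btc (chromosome 5, 91357261 to 91402994), binds both EGFR and ERBB4. Btc was at 4.05, 2.46 and 2.68 CPM in vehicle and 2.76, 2.85 and 2.23 CPM under PGE2. Vehicle library 1 alone was high, and without it the log2 fold change went from -0.24 ± 0.233 to 0.02. Tgfa encodes transforming growth factor alpha, a ligand of EGFR (chromosome 6, 86195223 to 86275719). It was at 3.26, 2.79 and 1.50 CPM in vehicle and 2.54, 2.02 and 1.74 CPM under PGE2, lower under PGE2 in pairs 1 and 2 and higher in pair 3 (-0.25 ± 0.310, edgeR adjusted p = 0.685).

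Nrg1, the neuregulin gene, whose products bind ERBB3 and ERBB4, spans 31814551 to 32884029 on chromosome 8. It was at 8.19, 11.1 and 12.2 CPM in vehicle and at 8.51, 9.44 and 11.8 CPM under PGE2. Here library 1 was the lowest of both groups. The log2 fold change was -0.08 ± 0.187, with a 95% interval from 0.699-fold to 1.28-fold. Its sign turned to 0.02 when the dependence of fold changes on transcript length was corrected.

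Egfr was the most abundant of the 9 and did not pass the test. Its product is the shared receptor of most of these ligands, and the gene lies on chromosome 11 at 16752203 to 16918158. It was at 213, 257 and 242 CPM in vehicle libraries and 190, 232 and 275 CPM in PGE2 libraries. The PGE2 libraries spanned the wider range and enclosed all 3 vehicle values. The log2 fold change was -0.03 ± 0.142 (edgeR adjusted p = 0.921), with a 95% interval from 0.777-fold to 1.23-fold. Across all tested genes with a known length, fold changes fell with transcript length (Spearman rho = -0.408, genes not being independent replicates), and the longest Egfr transcript has 10208 bases against a median of 3200. After a length correction Egfr was at 0.20 ± 0.148 unpaired and, in the paired fit, at 0.20 ± 0.0556, where it rose (edgeR adjusted p = 0.0269). That fit called 16.8% of all tested genes, 8.82% higher and 7.97% lower, and 2 of the members, Egfr higher and Erbb3 lower. Left uncorrected and without pair 3, the paired fit put Egfr at -0.17 and called it lower (edgeR adjusted p = 0.0295). The same fit called 2705 of 15316 tested genes lower. The direction of Egfr thus differed between the corrected and this uncorrected fit.

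Erbb2, the partner receptor without a ligand, showed the lowest adjusted p of the members in the unpaired fit. It lies on chromosome 11 at 98412470 to 98437716. It was at 47.7, 49.3 and 44.3 CPM in vehicle and at 40.1, 41.9 and 44.7 CPM under PGE2. Only PGE2 library 3 reached into the vehicle range. The log2 fold change was -0.16 ± 0.0751 (edgeR adjusted p = 0.294), with a 95% interval from 0.795-fold to 1.01-fold, the narrowest of the 9. Within pairs it differed by -0.25, -0.23 and 0.01, and the paired fit without pair 3 called it lower at -0.25 (edgeR adjusted p = 0.00625). That fit called 5097 of 15316 tested genes, 2705 of them lower.

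**Figure D2:**
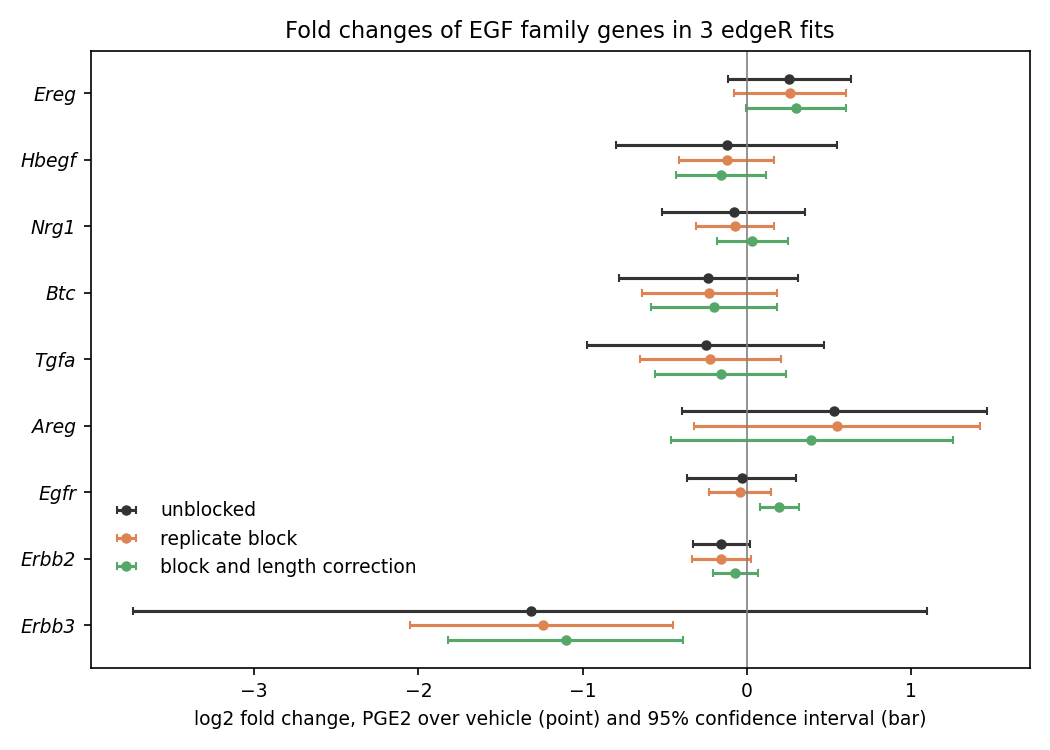
Log2 fold change of PGE2 over vehicle (horizontal axis) for each gene in the unpaired edgeR fit, the paired fit (replicate block) and the paired fit with a length correction; points are estimates and bars are 95% confidence intervals. All unpaired intervals include 0, the Erbb3 intervals of both blocked fits lie below 0, and the Egfr interval lies above 0 with the length correction.

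Erbb3 varied most between libraries. The gene, whose product pairs with ERBB2 to receive neuregulin signals, lies on chromosome 10 at 128567520 to 128589650. Its counts were 154, 16 and 23 in vehicle and 65, 6 and 18 in PGE2 libraries, or 3.58, 0.757 and 0.531 CPM against 1.40, 0.116 and 0.490 CPM. Library 1 was the highest of both groups, and PGE2 library 1 was above vehicle libraries 2 and 3. The unpaired log2 fold change was -1.31 ± 1.003 (edgeR adjusted p = 0.504). Without vehicle library 1 it was 0.08. In the paired fit Erbb3 fell by 1.24 ± 0.361 on the log2 scale (edgeR adjusted p = 0.0436). The differences were -1.33, -2.28 and -0.11 in pairs 1 to 3, so pair 3 showed little of it. Without pair 1 the paired value was -1.12 and did not pass (edgeR adjusted p = 0.211). It passed without pair 2 (0.0213) and without pair 3 (5e-05), and with the length correction (0.0369). Of all tested genes, these fits called 671 of 15307, 2705 of 15316 and 7.97% lower.

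ERBB3 is well known in Schwann cells and is also present in cells of the muscle lineage, so markers of both were measured. Summed over 8 myogenic markers, vehicle libraries had 165, 54.7 and 35.0 CPM, and PGE2 libraries had 104, 12.9 and 13.2 CPM. As for Erbb3, library 1 was the highest of both groups and each PGE2 library was below its partner. Of 6 myogenic markers tested, 0 passed unpaired and 5 fell in the paired fit, where 7.51% of all tested genes fell. With that fit corrected for length, 2 of them fell, Myod1 and Cdh15. Myod1 was at -1.35 and Myog at -1.34 in the paired fit. Pax7 and Myf5, which mark muscle stem cells, had at most 3 and 5 counts in any library. Summed over 7 Schwann cell markers the level was 6.93, 8.23 and 7.46 CPM in vehicle and 4.44, 5.16 and 4.30 CPM under PGE2. Of the 3 Schwann markers tested, S100b and Cdh19 fell in the paired fit, while Sox10, a defining gene of these cells, was at 0 counts in every library. The pericyte and endothelial sums given above were also lower under PGE2 in each pair. Library 1 was the highest of both groups for the pericyte sum too, and the lowest for the endothelial sum. The part of these cell types in the Erbb3 values was not tested.

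**Figure D3:**
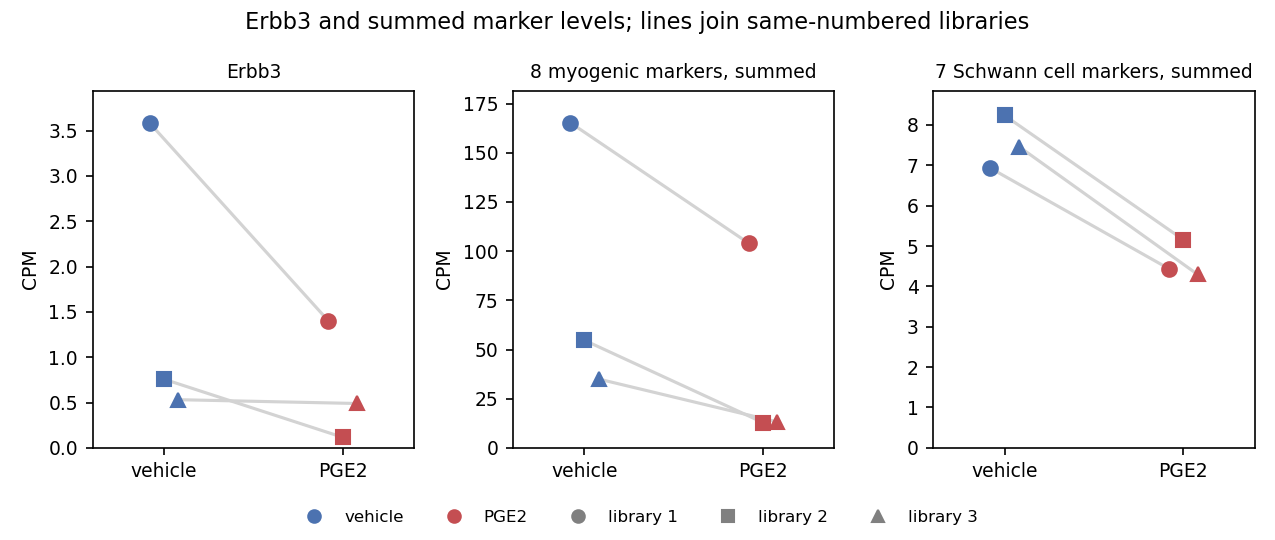
Erbb3 and the summed levels of 8 myogenic and 7 Schwann cell markers in CPM (linear axes from 0); points are libraries and grey lines join same-numbered vehicle and PGE2 libraries. Erbb3 and the myogenic sum are highest in library 1 of both groups, which the Schwann sum is not.

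Levels were compared between genes per kilobase of exon, with the exons of all annotated transcripts joined. In vehicle the 2 main receptors led, Egfr at between 18.8 and 22.7 and Erbb2 at 9.04 ± 0.488 CPM per kilobase (SD, n = 3). Egfr exceeded Erbb2, and Erbb2 exceeded every ligand, in all 6 libraries without overlap. Egfr made up 65.9% to 73.7% of the summed receptor level and Erbb3 at most 2.08%. Among ligands Ereg was at 1.19 ± 0.173, Hbegf at 1.04 ± 0.304, Nrg1 at 1.01 ± 0.200, Btc at 0.678 ± 0.190, Tgfa at 0.388 ± 0.140 and Areg at 0.256 ± 0.0142 CPM per kilobase. Each ligand's range over the 6 libraries overlapped that of the next in this order, as did those of Areg and Erbb3 (0.270 ± 0.283). Under PGE2 the same unit gave 1.42 ± 0.147 for Ereg, 0.955 ± 0.319 for Hbegf and 0.959 ± 0.166 for Nrg1. The order of the leading ligands depended on the length used. Per kilobase of the longest transcript the vehicle order was Nrg1 (1.94), Hbegf (1.73) and Ereg (1.19), while Egfr (23.3) and Erbb2 (9.40) still led.

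**Figure D4:**
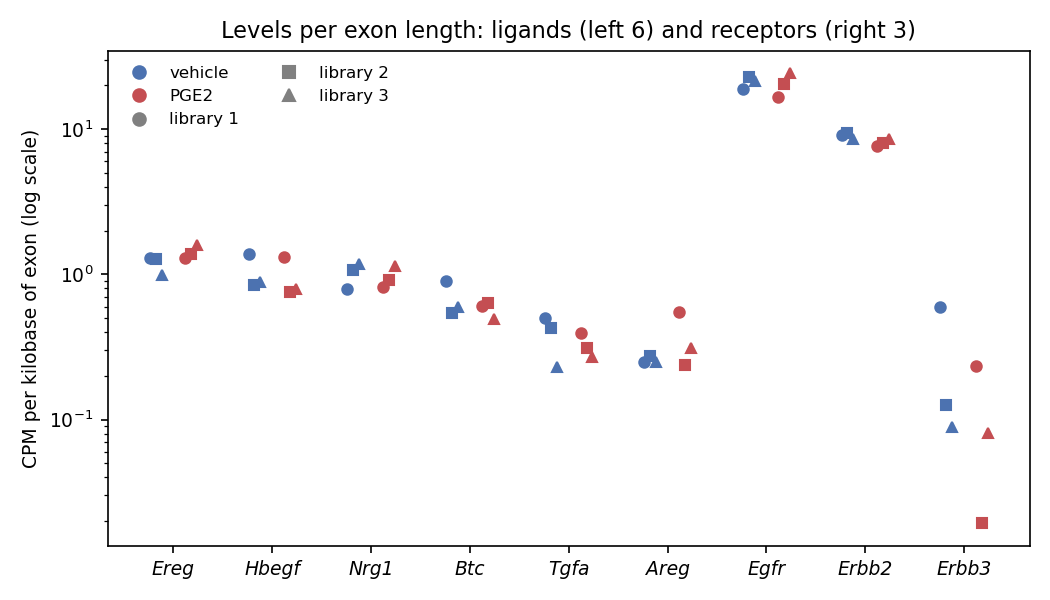
CPM per kilobase of joined exons (log axis) for the 6 ligand and 3 receptor genes; each point is a library, coloured by group and shaped by library number. Egfr and Erbb2 lie above all ligands in every library, and Erbb3 spreads most, from 0.0193 to 0.595.

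Other members of the family were near the detection limit. Of Egf, Epgn, Nrg2, Nrg3, Nrg4 and Erbb4, only Egf passed the filter, at 0.932 ± 0.294 CPM in vehicle and 0.853 ± 0.0718 CPM under PGE2 (edgeR adjusted p = 0.811). Nrg3 was at 0 counts in all 6 libraries. Erbb4, the remaining receptor, had 2 counts in PGE2 library 1 and 0 in the other 5. Epgn, which shares the chromosome 5 cluster with Ereg, Areg and Btc and lies 39407 bases from Ereg, had between 0 and 4 counts.

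Genes that free the ligands or restrain the receptors were described from lists of the pathway. Of 9 genes of ligand shedding 0 passed unpaired, with a median log2 fold change of -0.02 against 0.00 for all tested genes. That median was 0.10 with the length correction. In the paired fit 1 rose and 1 fell, against 6.91% and 7.51% of all tested genes. Adam9, a metalloprotease, rose from 534 ± 32.8 to 672 ± 31.2 CPM (0.33 ± 0.0806, edgeR adjusted p = 0.0234). Timp3, an inhibitor of ADAM17 and of matrix metalloproteases, fell from 275 ± 31.1 to 190 ± 13.9 CPM (-0.53 ± 0.0782, edgeR adjusted p = 0.00214). Timp3 also passed with each pair left out, and Adam9 did not without pair 1 (0.0606) or pair 2 (0.157). Adam17 itself, the main sheddase of Areg, Hbegf and Tgfa, was at 125 ± 12.2 and 104 ± 4.25 CPM (-0.26 ± 0.0834 in the paired fit, edgeR adjusted p = 0.0615). Adam17 fell once the paired fit was corrected for length (edgeR adjusted p = 0.0414) and, uncorrected, without pair 3 (-0.37, edgeR adjusted p = 4.44e-07). The former fit called 7.97% of all tested genes lower, and the latter 2705 of 15316.

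Of 9 tested negative regulators of the receptors 0 passed unpaired, against 0.342% of all tested genes. In the paired fit 1 rose and 1 fell, where 6.91% of all tested genes rose and 7.51% fell. Errfi1, whose product binds and inhibits EGFR family kinases and whose promoter is shown above, was at 379, 430 and 431 CPM in vehicle and 479, 551 and 597 CPM under PGE2. The groups did not overlap, as was so for 25.9% of all tested genes and for 3 of the 9 tested genes of this list. Errfi1 rose by 0.39 ± 0.0779 in the paired fit (edgeR adjusted p = 0.0103), and it missed the threshold without pair 2 (0.0514). Socs5, which promotes receptor breakdown, fell by 0.28 ± 0.0777 (edgeR adjusted p = 0.0405), and did not pass without pair 1 (0.26) or pair 2 (0.26). Lrig1, another receptor suppressor, was at 137 ± 14.9 and 123 ± 7.91 CPM and passed in neither fit. Of the other 3 list genes with the full cyclic AMP element, Epha2 fell in the paired fit (-0.35), and Braf (-0.14) and Ptpn11 (-0.13) did not pass.

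Of 16 adaptors and RAS-ERK cascade genes 0 passed unpaired, and 1 rose in the paired fit, a share near the 6.91% of all tested genes that rose there. This was Map2k1, which encodes the kinase MEK1, from 130 ± 8.71 to 162 ± 5.31 CPM (0.32 ± 0.0696, edgeR adjusted p = 0.0154, and 0.162 without pair 2). Sos2 (-0.28), an exchange factor that activates RAS, passed in neither fit (edgeR adjusted p = 0.062 in the paired fit).

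Transcripts known as outputs of ERK signalling moved most among these lists, and they moved both ways. They answer to many receptors, including those for the FGF in the medium. Of 18 tested, 1 rose unpaired: Ier3, an early response gene, was at 18.1, 16.9 and 21.4 CPM in vehicle and 34.8, 35.0 and 34.0 CPM under PGE2 (0.88 ± 0.0987, edgeR adjusted p = 0.0355, where 0.211% of all tested genes rose). The unpaired call held when PGE2 library 1 was left out. Leaving out any of the vehicle libraries lost it (0.0577, 0.177 and 0.0501 for 1 to 3), and so did leaving out the second or the third PGE2 library (0.231 and 0.140). In the paired fit 3 rose and 8 fell, against 6.91% and 7.51% of all tested genes, and the list's median log2 fold change was -0.17 against 0.00. Besides Ier3, the AP-1 gene Fos (0.54, edgeR adjusted p = 0.0149) and the urokinase receptor gene Plaur (0.46, edgeR adjusted p = 0.0248) rose. Fos did not pass without pair 1 (0.0688), nor Plaur without pair 2 (0.106).

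The genes that fell included ERK feedback inhibitors: the phosphatase gene Dusp4 (-0.64), the Sprouty genes Spry4 (-0.61) and Spry2 (-0.24), and Spred1 (-0.27). They also included the ETS factors Etv4 (-0.73) and Etv5 (-0.33), the receptor gene Epha2 and the cyclin D1 gene Ccnd1. Epha2 was at -0.35 in the paired fit, did not pass there without pair 1 (0.0802), and turned to 0.04 in the unpaired fit without vehicle library 1. Etv5, Spry2 and Spred1 did not pass without pair 1 (0.191, 0.0999 and 0.162) or without pair 2 (0.150, 0.372 and 0.308), and Spred1 was at -0.14 and did not pass with the length correction (0.0842). For Ccnd1, vehicle libraries were at 469, 223 and 180 CPM and PGE2 libraries at 247, 121 and 93.2 CPM. Its differences within pairs were -0.92, -0.88 and -0.95, nearly equal although the libraries of each group were far apart. This near equality holds for libraries 2 and 3 paired as numbered, not swapped. Unpaired, Ccnd1 was at -0.92 ± 0.487 and did not pass (edgeR adjusted p = 0.345). Over all 5 lists 16 of 53 tested genes passed in the paired fit, or 30.2% against 14.4% of all tested genes, and the lists were chosen with earlier results known. Without pair 1, 2 or 3 the list counts were 9, 8 and 32 of 53. Those over all genes were 1372 of 15057, 1160 of 15307 and 5097 of 15316. Of the 16, 6 passed with any 1 pair left out, namely Ier3, Dusp4, Timp3, Spry4, Etv4 and Ccnd1. The matching share over all genes called in the paired fit was not computed, so the 6 cannot be set against it. The summed myogenic, Schwann, pericyte and endothelial markers given above were also lower under PGE2 in each pair, and the macrophage and leukocyte sum was higher. Their part in these changes was not tested.

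**Figure D5:**
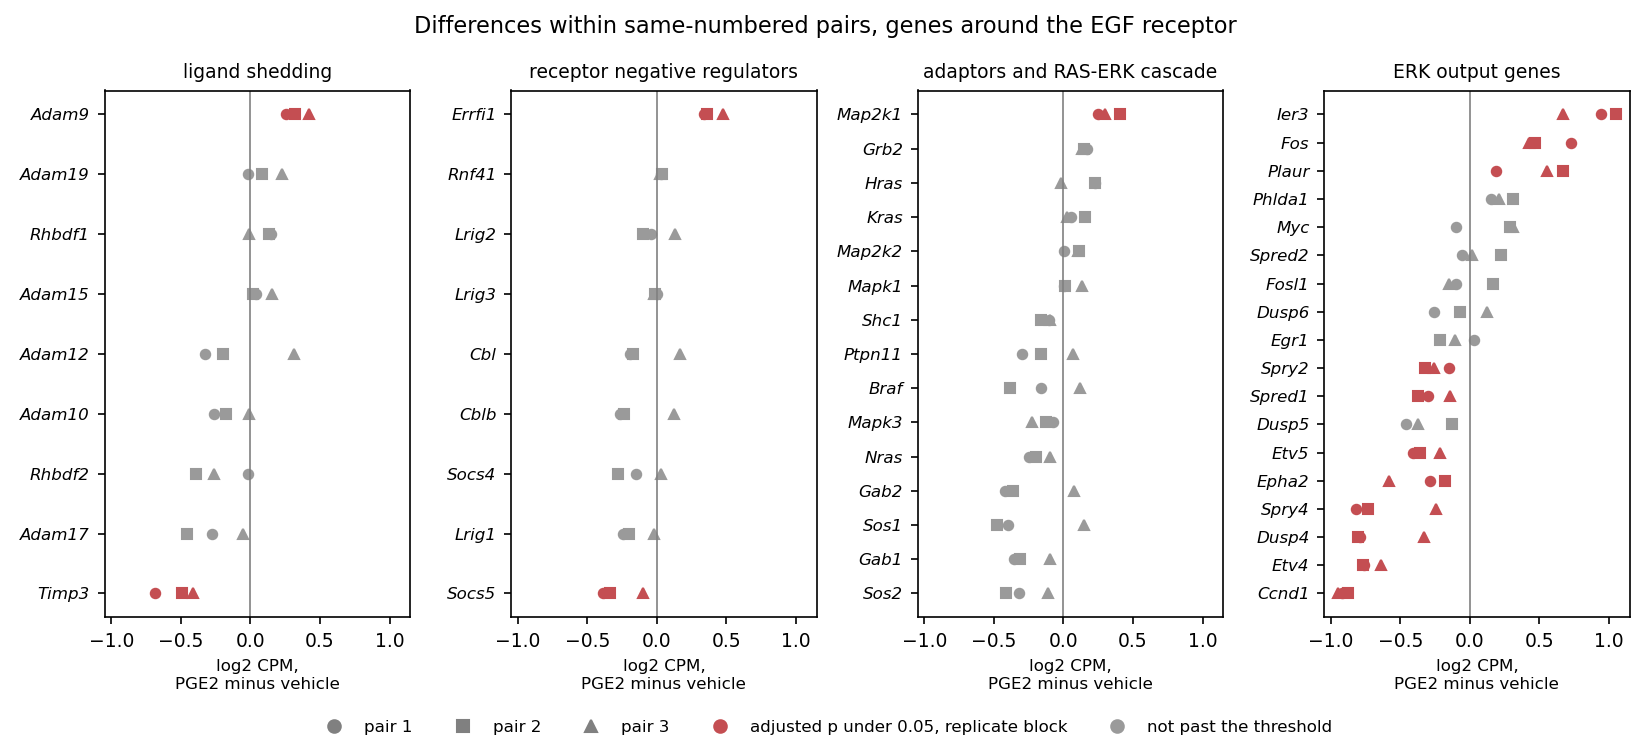
Difference in log2 CPM, PGE2 minus vehicle, within each same-numbered pair for tested genes of 4 pathway lists (1 gene is not shown); each row is a gene, shapes are pairs and red marks an adjusted p under 0.05 in the paired edgeR fit. Ccnd1 has nearly the same difference in all 3 pairs as numbered, at -0.92, -0.88 and -0.95.

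For each member the 2 genes with the most similar profile over the 6 libraries were listed, leaving out genes whose mean was under 5 CPM. These are descriptions over 6 points that share library numbers. The genes were Prdx3 and Pef1 for Areg, Ppp3r1 and Vgll4 for Ereg, Traip and Ptgs2os2 for Hbegf, Vma21 and Ctbp2 for Btc, and Kdsr and Nrp2 for Tgfa. They were Rasl11b and Ntn3 for Nrg1, Scyl3 and Tram1 for Egfr, Hlcs and Maml2 for Erbb2, and Rap1gap and Rttn for Erbb3. Pearson's coefficient lay between 0.952 for Pef1 with Areg and 0.999 for Hlcs with Erbb2. None of these 18 genes passed the test in the unpaired fit, where 0.342% of all tested genes did. They were picked for likeness to members that did not pass, so this adds no information on PGE2.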

How the data were processed

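The deposited values are raw counts, as whole numbers, for each Ensembl gene and library. Per the submitters' processing notes the build is mm10, and reads were 100-base paired ends, per the labels' protocols. For the aligner, counter, annotation release and strand setting, the version or choice is not given in the sources used here. Exons of Ereg, Tgfa, Nrg1 and Erbb2 overlap those of an opposite-strand gene by between 9 and 482 bases in GENCODE M21, so their counts could include reads from it. GENCODE M21 (GRCm38) gave positions and lengths and held 97.3% of identifiers.

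Counts were tested two-sided with edgeR version 4.0.16 (filterByExpr, trimmed mean of M values, robust quasi-likelihood, Benjamini-Hochberg, threshold 0.05) in R version 4.3.3, on all 6 libraries. CPM use the scaled library sizes, and log2 CPM a prior count of 2. Errors are SD over 3 libraries or SE of fold changes. Fits were tested on simulated data.

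Members and lists were chosen with earlier results of these data known. Replicate numbers occur in both groups. Same-numbered libraries correlated at 0.621, 0.169 and 0.422 in their deviations from group means, each above the limit of 0.1 set for treating numbers as pairs. This rests on the data, not the labels, and vehicle library 3 correlated more with PGE2 library 2 (0.252) than vehicle library 2 did. Vehicle library 2 with PGE2 library 3 (0.145) was above the limit too. Deviations cancel out within a group, so these correlations depend on each other. A match of the libraries numbered 1 alone would raise those among libraries 2 and 3. The limit therefore cannot tell the numbered pairs 2 and 3 from the swapped ones, and every paired result depends on that choice. The values of 1 pathway gene are not reported here. Named genes were all members, up to 3 genes of each list with the smallest p, any past the threshold, and the 2 most similar genes per member. Further list genes past the threshold in the paired fit were named after their values were seen.

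Alternatives were DESeq2 version 1.42.0, limma-voom (limma version 3.58.1), library totals, no filter, the replicate block, a lowess length trend (span 0.3) in the offset, each library left out and, chosen after seeing the data, each pair left out and the longest-transcript length.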

Additional observations from a re-analysis of the deposited data

How the results depend on the processing

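Over all tested genes 52 passed, and the count was 65 with library totals alone, 932 with DESeq2, 285 with no low count filter, 13 with limma-voom, 15 with the length correction, 2189 with the replicate block and 2549 with both. The library totals gave 31 higher and 34 lower, against 32 and 20 in the unpaired fit. With 1 library left out it was between 0 and 120 (120 without PGE2 library 1, 30 without vehicle library 1). The 4 counts of 0 in edgeR came without vehicle library 2 or 3 or PGE2 library 2 or 3, where 1871, 3697, 1494 and 2597 genes had an unadjusted p below 0.05. With the replicate block and pair 1, 2 or 3 left out it was 1372, 1160 and 5097. Of the 9 family members 0 passed in the unpaired fit and in every unpaired alternative. With the replicate block 1 passed, with the block and length correction 2, and with the block and pair 1, 2 or 3 left out 0, 1 and 3. Of the pathway list genes 1 passed, and the count was 9 with DESeq2, 2 with no low count filter, 16 with the replicate block, 20 with the block and length correction, 9, 8 and 32 with the block and pair 1, 2 or 3 left out, and between 0 and 1 with 1 library left out.

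Of 144 recomputed member fold changes 15 changed sign. With 1 library left out Hbegf ranged from -0.44 to 0.14 (0.14 without vehicle library 1, 0.02 without PGE2 library 2), Btc from -0.36 to 0.015, Nrg1 from -0.24 to 0.0405 (0.02 without PGE2 library 1), Egfr from -0.17 to 0.0945 (0.02 without vehicle library 2) and Erbb3 from -2.54 to 0.0823. Nrg1 was at 0.0162 with the length correction, 0.0315 with the replicate block and length correction and 0.0061 with the block and pair 2 left out. Egfr was at 0.20 with the length correction, 0.20 with the block added, and 0.0183 and 0.0092 with the block and pair 1 or 2 left out. Among pathway genes Egf ranged from -0.29 to 0.16 and Epha2 from -0.76 to 0.0405 with 1 library left out, and Egf was at 0.20 with the block and pair 3 left out. The cause was not tested. Counts were low for Areg and Erbb3, whose lowest libraries held 7 and 6 counts. The 6 counts of Erbb3 were in PGE2 library 2, the deepest library.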
